A study of Rattus norvegicus with 74 samples.

Results

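The genes described here encode the machinery of motile cilia and sperm flagella: 66 protein-coding genes out of 30560 genes in the count tables of a rat muscle study. They were chosen by symbol, as every protein-coding gene named Dnah, Dnai, Drc, Cfap, Rsph or Tekt followed by a number, with Tsks and Ttc21a added by name and Tcte1 left out. By family they are 32 Cfap, 12 Dnah, 7 Rsph, 5 Dnai, 5 Tekt and 3 Drc genes, plus Tsks and Ttc21a. Tsks and Ttc21a were added with earlier results of these data in view, so their values below are a description.

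The animals were male wild-type Wistar Kyoto rats, 9 weeks old when tissue was taken, and all of them drank water containing deuterium oxide. Trained rats (ExT) began treadmill running at 5 weeks of age and ran 5 days a week for 4 weeks, reaching 60 min at 20 m/min, and sedentary rats (Sed) were placed on a stationary treadmill. The inner red gastrocnemius, a hindlimb muscle, of each of 30 rats gave a whole-muscle library (SM) and a library from mitochondria (MT), which were isolated from fresh muscle by antibody capture and cleaned with RNase-A and proteinase-K. The left ventricle (LV) of 14 of the rats gave a further library, so that SM_Sed, SM_ExT, MT_Sed and MT_ExT hold 15 libraries each and LV_Sed and LV_ExT hold 7 each. Each library is 1 rat, sampled 24 h after its final session. RNA input was 50 ng in SM and 10 ng in MT with a Zymo kit, and 100 ng in LV with an Illumina kit, so tissue, kit and input cannot be told apart between LV and SM. Between MT and SM, the fraction, its RNase-A and proteinase-K treatment and the input cannot be told apart either.

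The axoneme is the microtubule core of a motile cilium or flagellum. Outer and inner dynein arms, built from heavy chains, intermediate chains and light chains, slide neighbouring doublet microtubules past each other, and the nexin-dynein regulatory complex and the radial spokes turn that sliding into a controlled beat. Tektins are filaments inside the doublets, and many cilia- and flagella-associated proteins sit within or along the doublets or in the central pair. These structures are known from airway, oviduct and ependymal epithelium and from sperm. Muscle fibres and cardiomyocytes have no motile cilium, although cytoplasmic dynein, a separate motor, works in every cell.

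Levels are given as CPM, a gene's counts per 1000000 counts on nuclear-encoded genes of the library. SM libraries held 13281629 to 26002757 nuclear-encoded counts, LV libraries 29736117 to 42079400, and MT libraries only 430162 to 1055433. A level of 3 counts, taken as the smallest a library can show, lay between 0.115 and 0.226 CPM in SM, 0.0713 and 0.101 CPM in LV, and 2.84 and 6.97 CPM in MT. CPM is not scaled by transcript length, so levels are compared between libraries and not between genes. By RefSeq's annotation 37 of the 66 genes overlap another gene, 18 of them a protein-coding one, and reads of overlapping genes may not be fully separated. The labelled tissues carried their markers: 8 markers of skeletal muscle fibre summed to 131470 to 177320 CPM in SM, and 6 markers of cardiomyocytes summed to 49253 to 62076 CPM in LV. In MT the muscle fibre markers summed to 681 to 3056 CPM.

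Taken as a sum, the genes were a small part of the RNA of each tissue and a larger part of that of MT. The 66 genes summed to 136 to 270 CPM in SM with a median of 181, to 198 to 255 CPM in LV with a median of 209, and to 5076 to 5870 CPM in MT with a median of 5629. In percent of nuclear-encoded counts this was 0.0136 to 0.0270 in SM, 0.0198 to 0.0255 in LV and 0.508 to 0.587 in MT. No SM or LV library came near any MT library. A count was seen for all 66 genes in each of the 30 MT libraries, against 37 to 54 genes in an SM library and 47 to 54 in an LV library, although MT was the shallowest of the 3 by far. Wide detection in MT was not particular to these genes. Of all nuclear-encoded genes, 22724 had a mean of at least 5 counts in MT_Sed, against 14537 in SM_Sed and 15750 in LV_Sed. Of the 66 genes, 66, 26 and 34 did. In bulk RNA, fewer cells of a type and less RNA per cell cannot be told apart.

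**Figure D1:**
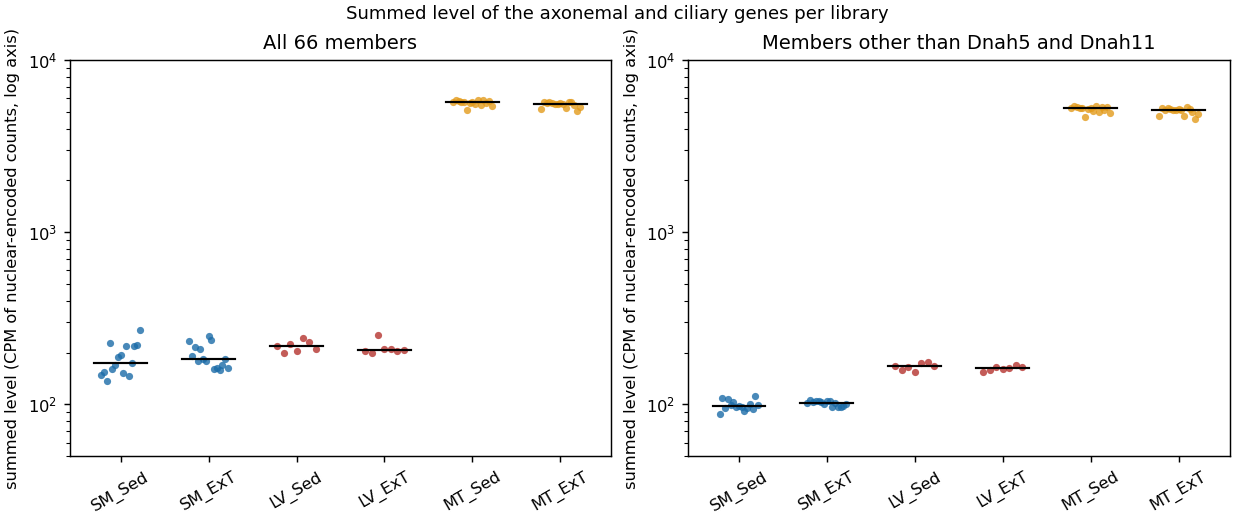
Each point is 1 library, on a log axis of summed CPM of nuclear-encoded counts, and the bar is the group median. The left panel sums all 66 genes and the right panel the 64 other than Dnah5 and Dnah11. With those 2 left out, SM lies between 87.6 and 111 CPM, LV between 154 and 177 CPM, and MT between 4573 and 5427 CPM.

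Within whole muscle the sum rested on few genes. Dnah5 and Dnah11, heavy chains of the outer dynein arm, together held a median of 43.9% of the family's SM counts, with a range of 29.2% to 63.1%. In LV they held at most 34.8%, and in MT at most 9.91%. A mean of at least 1 CPM was reached by 18 of the 66 genes in SM, by 19 in LV, by 15 in both and by all 66 in MT. The other end of the range was close to empty: 18 genes never had more than 3 counts in any SM library, and 11 never did in any SM or LV library. Rsph4a, a radial spoke head protein, had no count in any of the 44 SM and LV libraries, and Drc7 had 1 count over all 30 SM libraries and none in LV.

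Among the heavy chains, Dnah5 and Dnah11 were the members with the most counts in muscle. Dnah5 ranged from 13.1 to 119.9 CPM in SM with a median of 42.9, which is 236 to 2190 counts per library. Dnah11 ranged from 23.5 to 50.2 CPM in SM with a median of 34.3. Dnah14, an inner-arm type of heavy chain, followed at 1.71 to 5.13 CPM in SM, and Dnah1, an inner-arm chain needed for sperm flagella, at 0.449 to 1.98 CPM. The remaining 8 heavy chains had SM means between 0.0371 CPM (Dnah12) and 0.409 CPM (Dnah17), so the family split in muscle into a few genes with many counts and a larger number near the limit of detection. In MT the same 12 genes lay much closer together, from a mean of 141 CPM (Dnah12) to 291 CPM (Dnah17).

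The intermediate chains, radial spoke genes and tektins had few counts in muscle. Of the 5 Dnai genes, only Dnai7 had a mean of at least 1 CPM, with 1.99 to 4.42 CPM in SM and 1.59 to 3.02 CPM in LV. Of the 7 radial spoke genes, Rsph3, a stalk protein, had 1.11 to 2.94 CPM in SM and 4.88 to 7.84 CPM in LV, and Rsph9, a spoke head protein, 0.527 to 3.59 CPM in SM and 0.316 to 1.08 CPM in LV. Of the 5 tektins, Tekt1 alone had a mean of at least 1 CPM in SM, with 0.527 to 2.92 CPM. The nexin-dynein regulatory complex had 1 gene with a clear level in heart, Drc3, and Drc1 and Drc7 had SM means of 0.203 and 0.00151 CPM.

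The Cfap genes divided in the same way, with 9 of 32 at a mean of at least 1 CPM in SM. The leading ones were Cfap298, known for a part in assembling dynein arms, at 17.4 to 33.2 CPM, Cfap36 at 12.2 to 19.5 CPM and Cfap70, an outer-arm component, at 5.98 to 17.3 CPM. Cfap97, Cfap20, an inner-junction protein of the doublet, and Cfap410 followed at 7.22 to 13.2, 3.73 to 8.36 and 2.37 to 6.59 CPM. The names of several of these reflect where they were first found, and whether they act outside cilia in muscle was not measured. The other 23 Cfap genes had SM means from 0.00160 CPM (Cfap97d2) to 0.566 CPM (Cfap52).

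**Figure D2:**
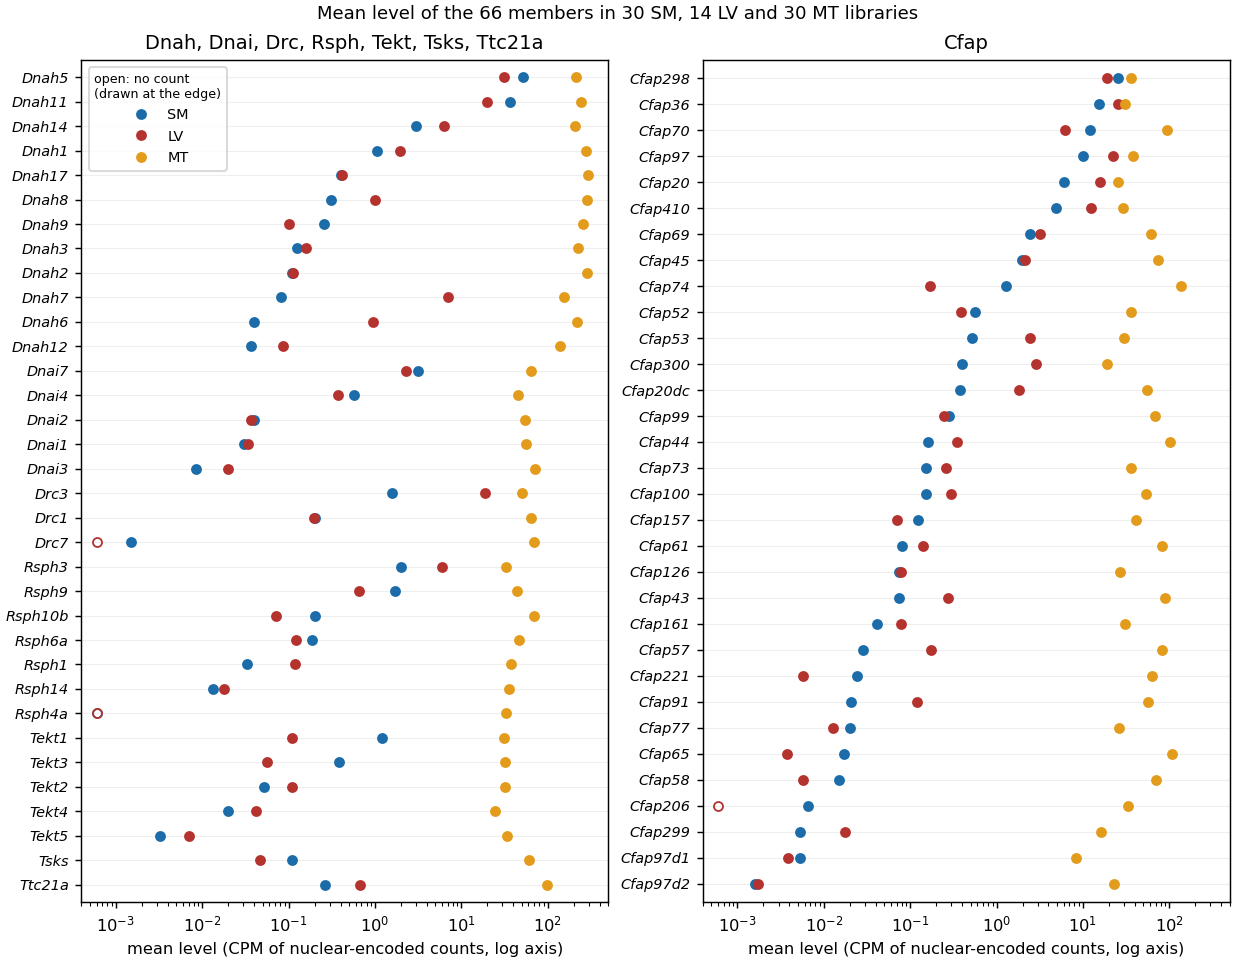
Each row is 1 of the 66 genes, with its mean CPM of nuclear-encoded counts in SM (30 libraries), LV (14) and MT (30) on a log axis. Open circles at the left edge stand for genes with no count. SM and LV means spread from 0 to 52.0 CPM, whereas all MT means lie between 8.34 and 291 CPM.

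The promoters were searched for a site of the RFX factors, the transcription factors known to drive many ciliary genes through a motif called the X-box. RefSeq's promoter table (build GRCr8) held 56 of the 66 genes. The letters GTNNCC, 2 further bases and GGNNAC were found on either strand within 250 bases before a start site in 5 of the 56 genes (8.93%), against 433 of 27457 genes in the whole table (1.58%). The core forkhead letters TGTTTAC were found in 4 of the 56 (7.14%) against 3.54% of all genes, and TATAAA in 7 (12.5%) against 14.1%. The 56 genes had 95 start sites and the 27457 genes 33469, so more starts were searched per member. Per start the shares were 5.26% against 1.43% for the X-box, 5.26% against 3.21% for the forkhead letters and 9.47% against 12.9% for TATAAA. The 5 windows with a match to the X-box are shown. Capitals mark the match, and each run is given 5′ to 3′ on the gene's strand.

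Cfap206, chr5:54095384-54095472, minus strand: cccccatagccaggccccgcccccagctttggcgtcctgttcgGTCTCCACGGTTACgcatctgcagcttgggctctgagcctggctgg
Cfap20dc, chr15:18661341-18661440, plus strand: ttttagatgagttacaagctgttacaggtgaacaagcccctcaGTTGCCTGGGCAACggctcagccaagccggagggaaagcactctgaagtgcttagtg
Cfap298, chr11:43677557-43677632, minus strand: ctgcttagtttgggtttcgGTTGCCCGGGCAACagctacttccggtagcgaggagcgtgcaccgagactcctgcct
Dnah12, chr16:1944647-1944746, plus strand: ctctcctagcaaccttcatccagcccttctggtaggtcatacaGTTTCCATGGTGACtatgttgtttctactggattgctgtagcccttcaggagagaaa
Dnah2, chr10:54766027-54766114, minus strand: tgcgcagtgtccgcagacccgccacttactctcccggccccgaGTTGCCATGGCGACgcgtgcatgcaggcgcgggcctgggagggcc

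These 5 genes had no common level in muscle. Their SM means were 25.7 CPM for Cfap298, 0.377 CPM for Cfap20dc, 0.111 CPM for Dnah2, 0.0371 CPM for Dnah12 and 0.00664 CPM for Cfap206. In MT they stood at 35.8, 55.1, 288, 141 and 33.3 CPM in the same order. A match describes these letters only, and binding was not measured. The RFX genes themselves had counts in every SM and LV library, with mean levels of 11.4 CPM in SM and 5.52 CPM in LV for Rfx2, and 5.87 CPM in SM and 3.30 CPM in LV for Rfx3.

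MT was compared with SM of the same 15 sedentary rats and, separately, of the same 15 trained rats. The series asks which nuclear-encoded RNAs are found with muscle mitochondria, and the origin of the MT counts was not tested here. Most of the genes were higher in MT, and Drc7, Dnah6, Dnai3 and Cfap58, which had next to no counts in muscle, had the largest fitted values in sedentary rats. With the quasi-likelihood test of edgeR and an adjusted p under 0.05 over all genes, 61 of 66 were higher and 3 lower in sedentary rats, and 60 of 65 tested were higher and 2 lower in trained rats. This is to be read against a background in which 94.8% of 22842 genes were called in sedentary rats (61.7% higher and 33.1% lower) and 94.3% of 21312 in trained rats (59.3% higher and 35.0% lower). Of the genes tested, 52 in sedentary and 51 in trained rats passed the filter on low counts only through their MT level and so had to differ. The median log2 fold change of the genes was 6.75 in sedentary and 6.27 in trained rats, against 1.81 and 1.31 over all genes tested.

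Fitted values of genes with so few counts depend on the prior count, and members with no muscle count at all are given below as bounds. By family in sedentary rats, 11 of 12 heavy chains, all 5 intermediate chains, all 3 nexin-dynein regulatory complex genes, all 7 radial spoke genes, all 5 tektins and 28 of 32 Cfap genes were higher in MT. Tsks and Ttc21a were higher as well, against 61.7% of all genes tested. Only 14 members passed the filter on low counts in SM_Sed. They were Dnah5, Dnah11, Dnah14, Dnai7, Rsph3, Rsph9, Cfap20, Cfap298, Cfap36, Cfap410, Cfap45, Cfap69, Cfap70 and Cfap97. The other members, among them every tektin and regulatory complex gene, were tested through MT and had to differ, so the tallies by family are a description. Drc7, a regulatory complex gene known from sperm, had at most 1 count in each SM_Sed library, against 47.3 to 92.8 CPM with a median of 66.4 in MT_Sed, a log2 fold change of 10.02. Dnah6, an inner-arm chain, had 0 to 0.115 CPM in SM_Sed and 178 to 249 CPM in MT_Sed, a log2 fold change of 9.85. For both genes the SM and MT groups were far apart, with not 1 library of either kind between them. Dnai3, an intermediate-chain gene, and Cfap58, known from the sperm flagellum, followed with log2 fold changes of 9.60 and 9.48. In trained rats the largest fitted values were those of Cfap65 (10.77), Drc7 (10.64), Dnah6 (10.16) and Dnai3 (9.93), and Drc7 had no count in SM_ExT.

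Where a muscle group had no count at all, only a lower bound can be given, set at 3 counts over the whole group. These bounds are ratios of CPM of nuclear-encoded counts, whereas the fitted fold changes use TMM scaling and a prior count, so the sizes of both kinds of value are not compared. Rsph4a was at least 2828-fold higher in MT_Sed than in SM_Sed and at least 3596-fold higher in MT_ExT than in SM_ExT. Against SM_ExT, Drc7 was at least 7153-fold, Tekt5 at least 3214-fold and Cfap97d2 at least 2107-fold higher in MT_ExT. Cfap299 was at least 1473-fold higher in MT_Sed than in SM_Sed. These genes have in common that the tissue showed next to none of them while every MT library did.

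The 5 members not called higher in sedentary rats were Cfap298, Cfap36, Cfap97, Dnah5 and Cfap20. Cfap298 was lower in MT, with a difference of -1.74 on the log2 scale (SE 0.11, edgeR adjusted p = 1.36e-20), Cfap36 by -1.21 (SE 0.11, edgeR adjusted p = 1.88e-14) and Cfap97 by -0.31 (SE 0.10, edgeR adjusted p = 0.00238), whereas Dnah5 (-0.09, SE 0.24) and Cfap20 (0.05, SE 0.12) were not called. Other members with a high level in muscle were higher in MT: Dnah11 by 0.66 (SE 0.09), Cfap70 by 0.92 (SE 0.10) and Cfap410 by 0.47 (SE 0.14). Scaling turned the sign of some of the 5. Scaled by library totals alone, 0 members were called lower, and in sedentary rats Cfap36 stood at 0.44, Cfap97 at 1.25 and Dnah5 at 1.53, whereas Cfap298 stayed negative at -0.12, and at -1.34 with RLE scaling. On the scale of nuclear-encoded counts every one of the 66 genes had a higher mean in MT than in SM, with 35.8 against 25.7 CPM for Cfap298 and 212 against 52.0 CPM for Dnah5. The share of all genes with a higher mean in MT on this scale was not determined. Cfap298 had 19.6 to 32.1 CPM in SM_Sed and 23.1 to 48.3 CPM in MT_Sed, so these groups overlapped.

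The spread of each gene among libraries was set against counting error. In a chi-square test of counts against the depth of each library, a value of 1 per degree of freedom is what counting error alone gives. The median over the genes was 1.52 in MT_Sed and 1.48 in MT_ExT, and the medians over all genes with enough counts were 1.53 and 1.51. This statistic grows with the number of counts, and MT is much shallower than SM, so MT and SM values are not compared. The same limit holds between genes, whose counts were not matched here, so values of single genes and medians are a description. The largest values in MT were 8.53 for Dnah1 in MT_Sed and 5.33 for Dnah17 in MT_ExT. In SM the medians were 3.60 in SM_Sed and 3.27 in SM_ExT, against 5.87 and 5.29 over all genes with enough counts, with Dnah5 at 348 and 302. In the 2 MT groups Dnah5 had values of 1.64 and 1.62 and a range of 182 to 272 CPM.

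Genes of some other cell types rose in MT too, and those of others fell. The 9 markers of multiciliated epithelium found in the tables summed to 0.107 to 0.688 CPM in SM, 0.229 to 1.13 CPM in LV and 271 to 388 CPM in MT, and all 9 were higher in MT than SM in both arms. The 10 markers of male germ cells summed to 0.344 to 1.96 CPM in SM, 0.504 to 1.77 CPM in LV and 218 to 309 CPM in MT, and all 10 were higher in MT in sedentary rats. The cardiomyocyte markers also stood higher in MT, with sums of 467 to 644 CPM against 21.8 to 121 CPM in SM, with 5 of 6 called higher in each arm and Actc1 lower, while all 8 muscle fibre markers were lower in each arm. All 3 endothelial and all 3 fibroblast markers were lower in MT in each arm. Of the 3 Schwann cell markers, 1 was lower and 0 were higher in each arm. Macrophage markers were higher for 2 of 3 in each arm, and adipocyte markers for 2 of 3 in sedentary and 3 of 3 in trained rats. In every SM library the ciliated marker Pifo and the germ-cell markers Akap4 and Pgk2 were at 0. In the fit of trained against sedentary SM libraries, 0 of the 9 ciliated, 1 of the 10 germ-cell and 4 of the 6 cardiomyocyte markers passed the filter. Of the 3 adipocyte markers, 1 did. That filter was less strict than the one of MT against SM: 21 members passed it, against 14 in SM_Sed there. Markers that did not pass were tested through their MT level and so had to differ, and this may hold for some that passed. The part of these other genes in the MT result was not tested.

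Lists of the surrounding pathway are read against the whole table in sedentary rats, where 61.7% of genes were called higher, 33.1% were called lower, and 1.81 was the genome-wide median on the log2 scale. All 6 tested genes of the central pair were higher in MT than in SM (median 8.76), among them Hydin, whose mean was 0.340 CPM in SM and 315 CPM in MT. Assembly and docking factors of the dynein arms were higher for 17 of 19 tested and lower for 1, Dnaaf5 (median 5.73). Intraflagellar transport, which builds primary as well as motile cilia, had 21 of 28 tested genes higher and 4 lower (median 0.80), and the BBSome, its cargo adaptor, 8 of 9 higher and 1 lower (median 1.01), and both medians lay below that of all genes. All 7 regulators of motile cilia were higher. Cytoplasmic dynein 1 went the other way, with 9 of 10 genes lower and 1, Dync1i1, higher (median -2.53). Its heavy chain Dync1h1 had a mean of 451 CPM in SM and 278 CPM in MT. In the fit of trained against sedentary SM libraries, 1 central-pair gene, 7 assembly and docking genes and 2 regulators of motile cilia passed the filter. The other central-pair, assembly and regulator genes were tested through their MT level and so had to differ. The filter of MT against SM was stricter, so this may hold for some of those that passed.

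LV was compared with SM in the 7 sedentary and the 7 trained rats that gave both. In the heart Dnah7, Dnah6, Drc3 and Cfap300 were higher and Tekt1, Cfap74, Rsph9, Cfap70 and the outer-arm chains Dnah5 and Dnah11 lower, in both arms. In sedentary rats 27 genes were tested, of which 13 were higher and 8 lower, against 78.7% of 14367 genes called (40.0% higher and 38.6% lower). In trained rats 28 were tested, of which 12 were higher and 10 lower, against 79.3% of 14338 genes called (39.7% higher and 39.5% lower). The shares called were thus close to those of all genes, and the median log2 fold changes of 0.30 and 0.09 lay near the medians over all genes of 0.04 and 0.01. In sedentary rats 7 members passed the filter on low counts only through LV and 3 only through SM, and in trained rats 6 and 4, and these had to differ.

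Dnah7, an inner-arm heavy chain, had the largest fitted difference. Dnah7, Dnah6, Cfap300, Cfap53 and Dnah8 did not pass the filter on low counts in SM alone and were tested because of their counts in LV, so a higher level there is no independent finding, and their values are given as a description. Dnah7's SM libraries held 0 to 6 counts, at most 0.287 CPM, and its LV libraries 101 to 393 counts, or 2.85 to 10.5 CPM. All 14 LV libraries lay above all 30 SM libraries. On the log2 scale LV exceeded SM by 5.93 (SE 0.51) in sedentary and 5.99 (SE 0.41) in trained rats, and RefSeq shows no gene overlapping Dnah7. Dnah6, with at most 3 counts in an SM library, had 22 to 59 counts in LV libraries and log2 fold changes of 4.07 (SE 0.51) and 3.60 (SE 0.50).

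Drc3, a subunit of the nexin-dynein regulatory complex, was higher in heart in both arms. It had 17.1 to 21.8 CPM over the 14 LV libraries and 0.518 to 2.77 CPM over the 30 SM libraries. The groups did not overlap, with log2 fold changes of 3.19 (SE 0.11, edgeR adjusted p = 1.31e-15) in sedentary and 2.71 (SE 0.13, edgeR adjusted p = 3.49e-13) in trained rats. Drc3 overlaps Tom1l2, an endosomal sorting gene with 161 to 209 CPM in LV and 82.5 to 173 CPM in SM. The strand setting of the counting is not given in the sources used here, and Tom1l2 itself was not called in either arm (0.01 and 0.04). Cfap300, a dynein-assembly factor, had 2.17 to 4.04 CPM in LV and 0 to 0.912 CPM in SM, and Cfap53, known for a part in left-right asymmetry, 1.69 to 3.24 and 0.115 to 1.08 CPM. Dnah8, a testis-type outer-arm chain, had 0.665 to 1.35 CPM in LV and 0.0825 to 0.783 CPM in SM, with log2 fold changes of 1.08 (SE 0.33) and 1.57 (SE 0.32). Rsph3, Cfap20, Cfap97 and Cfap410 were higher in LV in both arms by log2 fold changes between 0.60 and 1.18.

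On the lower side, Tekt1, Cfap74 and Rsph9 passed the filter only through SM, so their values too are a description. Tekt1 had 1 to 9 counts in an LV library, 0.0265 to 0.238 CPM, against 0.527 to 2.92 CPM in SM. Every LV library was below every SM library, with log2 fold changes of -4.81 (SE 0.34) and -3.39 (SE 0.30). Cfap74, a central-pair protein, had 0 to 0.409 CPM in LV and 0.623 to 2.12 CPM in SM, with log2 fold changes of -3.41 (SE 0.46) and -3.31 (SE 0.30). Rsph9 fell by 2.12 in sedentary and by 1.73 in trained rats on the log2 scale, with 0 and 1 of the 7 rats having a higher CPM in LV. Cfap70 was lower in LV in all 14 rats, with 5.28 to 6.79 CPM against 5.98 to 17.3 CPM in SM and log2 fold changes of -1.52 (SE 0.12) and -1.58 (SE 0.16). Dnai7, the intermediate-chain gene with the most counts, was lower by -0.95 (SE 0.14) and -1.19 (SE 0.15). The spoke genes Rsph3 and Rsph9 went in opposite directions between the tissues, with the value of Rsph9 a description only.

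The heavy chains with the most counts in muscle were lower in heart. Dnah11 had 13.1 to 29.6 CPM in LV, and its log2 fold changes were -1.65 (SE 0.19, edgeR adjusted p = 7.65e-07) and -1.37 (SE 0.14, edgeR adjusted p = 8.36e-08). All 14 rats had less Dnah11 in LV than in SM. Cdca7l, which overlaps Dnah11, had means of 0.386 CPM in SM and 0.967 CPM in LV. Dnah5 had 20.5 to 73.1 CPM in LV and differed by -1.52 (SE 0.29, edgeR adjusted p = 0.000281) and -1.35 (SE 0.41, edgeR adjusted p = 0.00862), with the range of each tissue overlapping the other. The LV_ExT library of rat 18, at 73.1 CPM, stood apart from the other 6 of its group, which reached at most 26.5 CPM. Without it the trained difference was -1.71 (SE 0.35, edgeR adjusted p = 0.000672), and over all members 13 were higher and 10 lower of 26 tested.

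**Figure D3:**
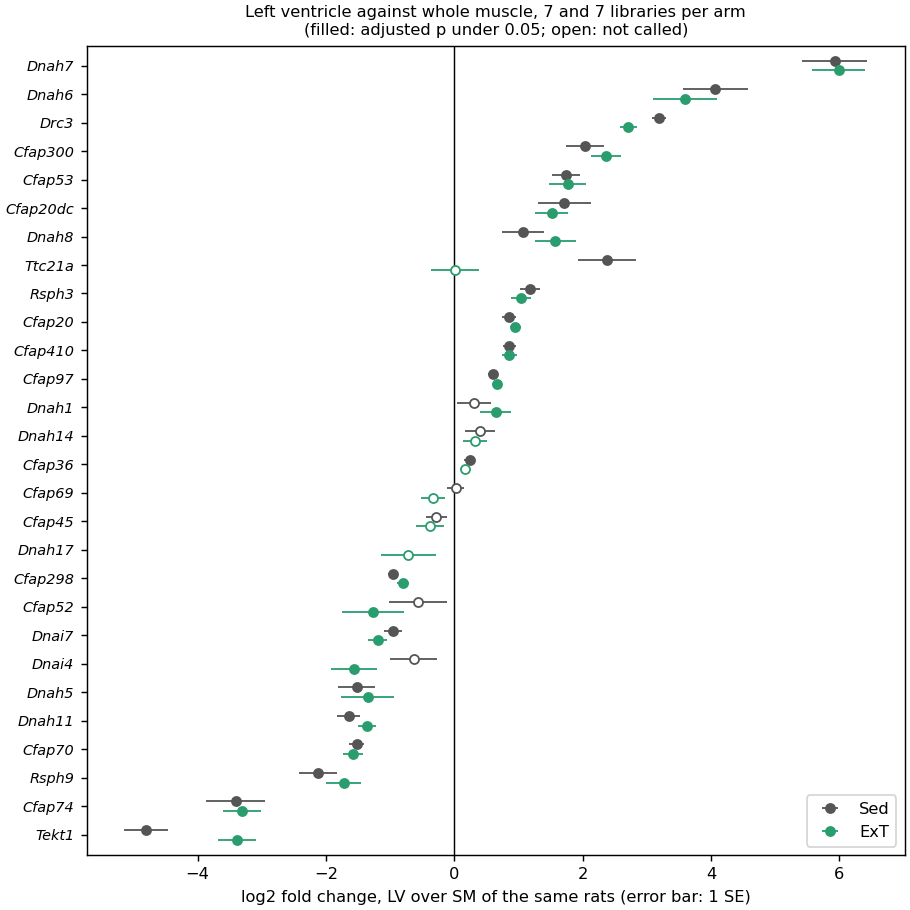
Each point is the log2 fold change of LV over SM for a member tested in sedentary (grey) or trained (green) rats, with 7 LV and 7 SM libraries of the same rats per arm and an error bar of 1 SE. Filled points have an adjusted p under 0.05. Dnah7 stands at 5.93 and 5.99 at the top and Tekt1 at -4.81 and -3.39 at the bottom.

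Several other ciliary lists held genes that were higher and genes that were lower in heart, as did the 14367 genes tested in sedentary rats, of which 40.0% were higher and 38.6% lower. In those rats 17 of 28 intraflagellar transport genes were higher in LV and 6 lower (median 0.41), 5 of 9 BBSome genes were higher and 2 lower (0.39), and 5 of 10 cytoplasmic dynein 1 genes were higher and 4 lower (0.22). Of 7 tested assembly and docking genes, 2 were higher and 4 lower (-0.58), with Dnaaf2 and Dnaaf9 on the higher side. Shorter lists went 1 way: of 3 tested axonemal dynein light chains, 2 were higher and 0 lower, and the 1 tested central-pair gene, Spag6, was lower. The regulators Rfx2 and Rfx3 were both lower in LV. Ciliated-cell markers stood at 0.229 to 1.13 CPM summed in LV, with Mcidas, Ccno, Dynlrb2 and Pifo at 0 in all 14 libraries, and germ-cell markers at 0.504 to 1.77 CPM, with Prm2, Tnp1, Tnp2, Odf1, Pgk2 and Gapdhs at 0.

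Dnah5 in whole muscle varied with the genes of slow and fast fibres. Slow-twitch fibres carry the myosin Myh7 and fast glycolytic fibres the myosin Myh4. Across the 30 SM libraries the Spearman correlation of Dnah5 with Myh7 was 0.75, and with Myh4 it was -0.74. All 7 slow-fibre genes examined (Myh7, Myl2, Myl3, Tnnt1, Tnni1, Tnnc1 and Atp2a2) had values between 0.68 and 0.80, and all 5 fast-fibre genes (Myh4, Tnnt3, Tnni2, Actn3 and Mybph) between -0.74 and -0.48. For Myh7 the value was 0.83 in sedentary and 0.62 in trained rats, and 0.90 in rats numbered 2 to 16 and 0.65 in rats 17 to 32. The fibre genes were looked at after Dnah5's spread had been seen, all points share the scaling of their library, and no test was made.

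Ranked over the 9776 genes with a mean of at least 5 CPM in SM, genes whose SM levels were among the most like that of Dnah5 were Phf24 (0.85), Akap6 (0.84), Homer2 (0.82) and Ankrd2 (0.82). Those most opposite were Pgm2l1 (-0.88), Lgi2 (-0.86), Plpp7 (-0.84), Fam78a (-0.84) and Stbd1 (-0.83). Among the 18 members with a mean of at least 1 CPM in SM, the correlation with Myh7 ran from 0.75 for Dnah5 and 0.66 for Drc3 through 0.38 for Dnah11 to -0.37 for Cfap70 and -0.49 for Rsph9, with 12 above 0. The members did not move as a block in muscle: Dnah5 and Rsph9 had a correlation of -0.49 with each other. In MT the 12 fibre genes had values with Dnah5 from -0.22 for Myl2 to 0.585 for Myh4, with 0.46 for Myh7, 0.478 for Tnnt3 and 0.00 for Tnni1, so that the fast genes Myh4 and Tnnt3 had the opposite sign from SM. In LV and SM of the same 14 rats, Dnah5 levels had a correlation of 0.28, or 0.20 without rat 18, whose SM level was 99.6 CPM.

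**Figure D4:**
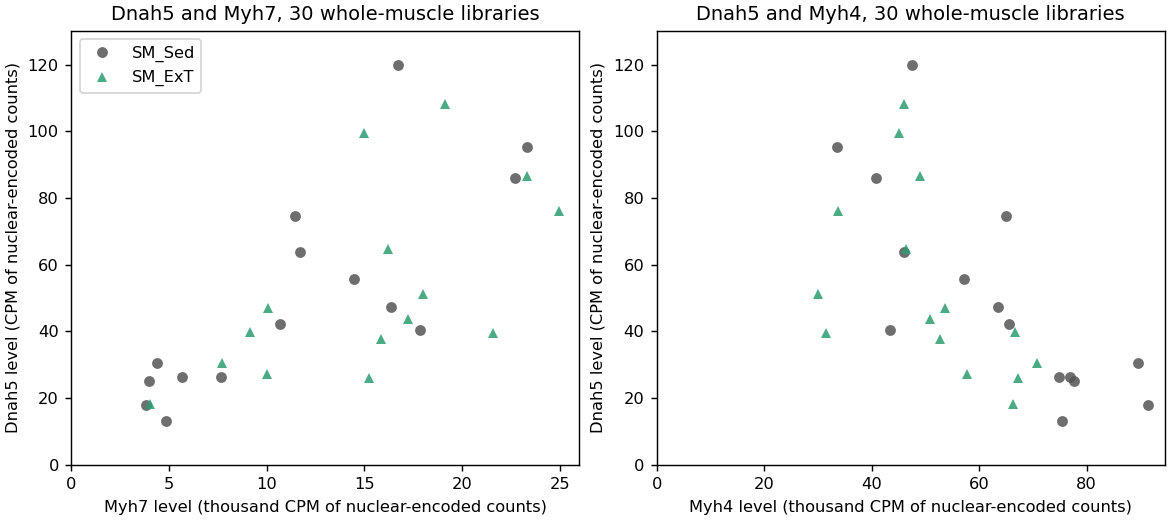
Each point is 1 of the 30 whole-muscle libraries, with Dnah5 in CPM of nuclear-encoded counts on the vertical axis and Myh7 (left) or Myh4 (right) on the horizontal axis, drawn in units of 1000 CPM. Grey circles are sedentary and green triangles trained rats. Dnah5 runs from 13.1 to 119.9 CPM and tends to be higher where Myh7 is higher and Myh4 lower, with Spearman values of 0.75 and -0.74.

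Training was compared within each kind of library, and no member was called in any of them. In SM 21 members were tested and 0 called by edgeR, with 2 at an unadjusted p under 0.05, and DESeq2 also called 0 with the same number under 0.05. Over all 13570 genes tested, edgeR called 0.206% and DESeq2 0.965%, and 13.7% had an unadjusted p under 0.05. In MT 65 were tested and 0 called, with 7 at an unadjusted p under 0.05 (9 in DESeq2, 0 called), against 0.0% of 19281 genes called by either tool and 4.73% with an unadjusted p under 0.05. In LV 28 were tested and 0 called, with 3 at an unadjusted p under 0.05 (4 in DESeq2, 0 called), against 0.0% of 14488 genes called by edgeR, 0.0069% by DESeq2 and 5.9% with an unadjusted p under 0.05. The median log2 fold change of the members was 0.00 in SM, -0.03 in MT and -0.01 in LV.

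Tekt1 had the smallest p among the members in SM and in MT, and it was lower in trained rats in both. In SM it ranged from 0.677 to 2.92 CPM with a median of 1.22 in SM_Sed and from 0.527 to 1.61 CPM with a median of 1.09 in SM_ExT. In MT it ranged from 15.6 to 70.9 CPM with a median of 34.7 in MT_Sed and from 12.5 to 38.6 CPM with a median of 24.8 in MT_ExT. The groups overlapped in both, and the log2 fold changes were -0.48 (SE 0.19, edgeR adjusted p = 0.276) in SM and -0.45 (SE 0.16, edgeR adjusted p = 1.00) in MT. By range of rat numbers, the SM difference was -0.95 (SE 0.26, edgeR adjusted p = 0.0530) in rats 2 to 16 and -0.01 (SE 0.24, edgeR adjusted p = 0.997) in rats 17 to 32, and the MT difference -0.59 and -0.31. The difference between the ranges was not tested. In LV, where Tekt1 had 17 counts in all over LV_Sed and 40 over LV_ExT, it did not pass the filter on low counts. With no filter it was higher in trained rats by 1.26 (SE 0.53, edgeR adjusted p = 0.713), the opposite direction from SM and MT.

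Drc3 followed in SM. It had 0.518 to 2.37 CPM with a median of 1.28 in SM_Sed and 0.917 to 2.77 CPM with a median of 1.81 in SM_ExT, differing by 0.43 on the log2 scale (SE 0.18, edgeR adjusted p = 0.295) that was 0.46 and 0.41 in the 2 ranges of rats. Its overlapping neighbour Tom1l2 differed by 0.14 (SE 0.07, edgeR adjusted p = 0.336). The third smallest p in SM was that of Cfap52 (-0.64, SE 0.40, edgeR adjusted p = 0.491), and in MT Cfap161 (0.37, SE 0.14) and Cfap97 (0.32, SE 0.13) followed Tekt1. In LV, Cfap300 (-0.32, SE 0.12), Cfap69 (-0.32, SE 0.12) and Ttc21a (-0.58, SE 0.25) had the smallest p, each with an edgeR adjusted p of 0.804. None of these differences passed the threshold after adjustment over all genes. Dnah5 and Dnah11, the members with the most counts, had SM medians of 42.1 and 33.4 CPM in sedentary and 43.7 and 35.9 CPM in trained rats.

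Tsks, a testis protein that takes its name from the sperm kinases it binds, and Ttc21a, a relative of the transport subunit Ttc21b, were too low in SM to enter the training fit. Tsks had 0 to 4 counts in SM_Sed libraries, 11 in all with 10 of 15 libraries at 0, and 0 to 7 counts in SM_ExT, 51 in all with 2 of 15 at 0. Ttc21a had 0 to 8 counts in SM_Sed, 41 in all, and 1 to 21 counts in SM_ExT, 114 in all. The groups overlapped for both. With no filter on low counts the log2 fold changes were 1.95 (SE 0.57, edgeR adjusted p = 0.187) for Tsks and 1.28 (SE 0.36, edgeR adjusted p = 0.169) for Ttc21a. Ttc21a overlaps Gorasp1, whose mean was 18.4 CPM in SM_Sed and 18.5 CPM in SM_ExT.

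In MT neither gene was called between the arms. Tsks had 46.9 to 89.8 CPM in MT_Sed and 48.8 to 71.2 CPM in MT_ExT (log2 fold change 0.00, SE 0.10), and Ttc21a 69.6 to 134 CPM and 63.5 to 140 CPM (0.01, SE 0.09), both with an edgeR adjusted p of 1.00. In LV, Tsks had 18 counts over LV_Sed and 6 over LV_ExT, and Ttc21a 22 to 36 counts per library in LV_Sed and 12 to 28 in LV_ExT. In both sets the ranges of sedentary and trained rats overlapped for each gene.

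**Figure D5:**
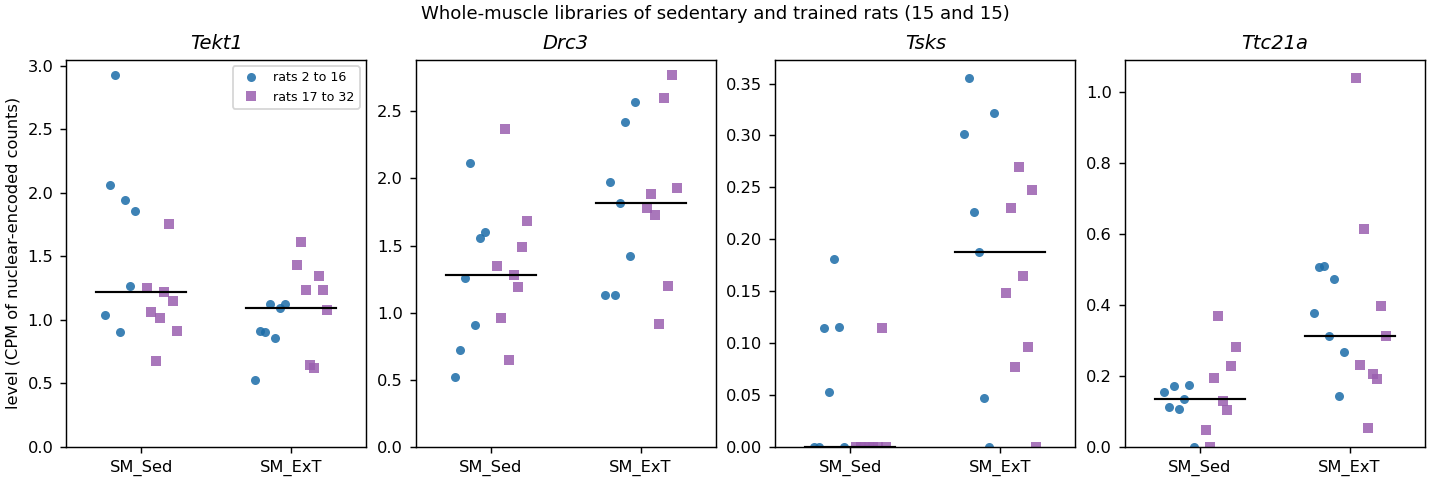
Each point is 1 whole-muscle library, in CPM of nuclear-encoded counts, for sedentary and trained rats, with the bar at the group median and the symbol giving the range of rat numbers. For Tekt1 the medians are 1.22 and 1.09 CPM, for Drc3 1.28 and 1.81 CPM. For Tsks, 10 of 15 sedentary and 2 of 15 trained libraries lie at 0.

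The difference of the training effect between kinds of library was tested with an interaction term. Between MT and SM, 0 of 66 members were called by edgeR, with 10 at an unadjusted p under 0.05, against 0.0181% of 27684 genes called and 8.5% with an unadjusted p under 0.05. Tsks (-1.83, SE 0.41) and Ttc21a (-1.28, SE 0.30) are 2 of these 10. Both were added by name with earlier results in view, and their SM counts are too few to pass the filter in SM, so their values are a description and support nothing. Among the members chosen by family name, Dnah17 had the smallest p (-0.86, SE 0.23, edgeR adjusted p = 0.193), with a lower effect in MT than in SM. Dnah17, with 2 to 28 counts per SM library, did not pass the filter in SM either, so its value too is a description. DESeq2 called 2 members, and these were Tsks and Ttc21a, against 0.116% of genes called, so it called none of the members chosen by family name. Between LV and SM, 0 of 30 members were called by either tool, with 3 at an unadjusted p under 0.05 in each, against 0.0% of 15049 genes called by edgeR, 0.00664% by DESeq2 and 4.57% with an unadjusted p under 0.05. These 3 were Ttc21a (-2.35, SE 0.62), again a description, Tekt1 (1.43, SE 0.46) and Drc3 (-0.46, SE 0.18). Tekt1 did not pass the filter in LV, so its value is a description as well.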

How the data were processed

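RNA-seq was made from whole muscle, captured mitochondria and left ventricle. The authors deposited whole-number counts of reads per gene, 1 table per kind of library. Per the submitters' processing notes, FastQC 0.74, cutadapt 4.6, STAR 2.7.11a, HTSeq and the build mRatBN7.2 were used, with no role or order given. The gene annotation and the strand setting of the counting are not given in the sources used here. Groups came from the sample titles, which also give the rat.

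From the counts, CPM was computed over 30523 nuclear-encoded genes, leaving out 37 genes of the mitochondrial genome, which took 12.9% to 95.4% of MT counts. Differences were tested over all 30560 genes with edgeR 4.0.16 (R 4.3.3, limma 3.58.1), using TMM scaling, filterByExpr, the quasi-likelihood test and Benjamini-Hochberg adjustment over all genes tested, called at an adjusted p under 0.05. Each fit held only the groups compared, and interactions held 4 groups. DESeq2 1.42.0 was an alternative. Figures and summaries used python 3.11.15, numpy 2.4.6, pandas 2.3.3, scipy 1.17.1 and matplotlib 3.10.9. The scripts were tested on simulated data.

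The genes, the lists of related genes and the markers were chosen with earlier results of these data known. Genes are named by rule: the 4 largest changes in each direction and the largest of each family among those called, the highest-level genes not called, the 3 smallest p of each training comparison, and the 8 highest levels per kind of library. The fibre genes, the overlapping neighbours and some further genes named for their role were chosen after values were seen, as was leaving out rat 18 in LV_ExT.

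MT, SM and LV libraries with the same number come from the same rat. Deviations from the group mean had a median correlation of 0.0092 between MT and SM of a rat (30 rats) and of 0.0212 between LV and SM (14 rats). The other alternatives were RLE scaling, library totals alone, no filter, mitochondrial-genome genes left out, thinning to the smallest total, each range of rat numbers, the range as a term, and leaving out single libraries. No pair of libraries within a group agreed within counting error, the smallest chi-square per degree of freedom being 1.20. Markers not found in the tables were not analysed here. A gene among those most like Dnah5 is not reported here.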

Additional observations from a re-analysis of the deposited data

Results flagged for a closer look

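Among 60 tests of a group of 7 LV libraries for 1 library far from the rest, 6 were positive, and chance gives about 1 in 20. Dnah5 in LV_ExT was 73.1 CPM in rat 18, with the next library at 26.5 CPM, and the sum over the 66 genes in LV_ExT was 254.5 CPM in the same library, with the next at 210.8 CPM. Dnah5 is part of that sum, so the tests are not independent of each other. In the library of rat 14 in LV_ExT, Dnah6 stood at 1.37 CPM, with the next at 0.891 CPM, and Dnai4 at 0.819 CPM, with the next at 0.339 CPM. In the library of rat 30 in LV_Sed, Cfap298 stood at 22.1 CPM, with the next at 20.1 CPM, and Cfap69 at 4.61 CPM, with the next at 3.63 CPM.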

How the results depend on the processing

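Scaling turned the sign of some members with a high level in muscle between MT and SM, and the median of all genes in sedentary rats itself moved from 1.81 (TMM) to 2.21 (RLE) and 3.43 (library totals) on the log2 scale. With library totals alone, 0 members were called lower in sedentary and 0 in trained rats, and the log2 fold changes in sedentary rats became 0.44 for Cfap36, 1.25 for Cfap97 and 1.53 for Dnah5, and in trained rats 0.0905 for Cfap298, 0.58 for Cfap36, 1.61 for Dnah5, 1.45 for Cfap97 and 1.53 for Cfap20. With RLE scaling, sedentary Cfap97 was 0.0887 and Dnah5 0.30, and trained Dnah5 0.37, Cfap97 0.36 and Cfap20 0.30. DESeq2 gave 0.0833 and 0.30 for sedentary Cfap97 and Dnah5, 0.36 for trained Dnah5, 0.36 for trained Cfap97 and 0.30 for trained Cfap20, and -0.0029 for Cfap69 between LV and SM in sedentary rats. Thinned to the smallest total, 23 and 8 members could be tested, of which 22 and 8 were higher and 0 and 0 lower in sedentary and trained rats, against 3583 higher and 2850 lower of all 7523 genes and 2257 and 2066 of 5248, with Dnah5 at 1.48 and 2.00 and trained Cfap298 at 0.49. Sedentary Cfap20 was -0.10 with no filter and -0.0012 without mitochondrial-genome genes. In rats 2 to 16, sedentary Dnah5 was 0.23 and trained Cfap97 0.15, and in rats 17 to 32, trained Dnah5 was 0.17 and trained Cfap20 0.19. With no filter, 62 members were tested between LV and SM in trained rats and 16 were lower. DESeq2 called 2 members lower in the interaction of MT and SM, and these were the 2 added by name, Tsks and Ttc21a. Apart from thinning and the filter, which change how many genes are tested, the cause was not tested.

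With the rat as a replicate block, 61 members were higher and 3 lower in MT in sedentary rats and 60 and 2 in trained rats, and 13 and 8, and 12 and 9, between LV and SM. The block turned the sign of Dnah5 between MT and SM, which was not called, to 0.12 and 0.17.

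Leaving out 1 library at a time in training kept the members called at 0 to 0 in SM and in LV, while the count over all genes in SM ran from 12 to 100. Without rat 18 in LV_ExT, 13 members were higher and 10 lower than in SM, and 0 were called in the interaction of LV and SM. At the depth of MT, 3 counts are 2.84 to 6.97 CPM, so MT values near the lowest member levels rest on few counts, and the training tests could not include members with few counts in SM and LV.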
